A study of Bos taurus with 16 samples.

Results

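The genes followed here are 10 epiblast and pluripotency genes, POU5F1, NANOG, SOX2, SALL4, PRDM14, KLF4, ESRRB, GDF3, LIN28A and LIN28B, picked by gene name. They are 10 of 38959 rows in the first blastocyst table and 10 of 37429 in the second. The table of stem cells names 8 of them among 28303 rows, while SOX2 and GDF3 are not named there and were not analysed in stem cells.

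The study asked what LY2955303 (LY), an inhibitor of retinoic acid receptor gamma, does to bovine embryos made by in vitro fertilization and to bovine embryonic stem cells (bESCs). In the first experiment, wild-type embryos were cultured from the 2-cell stage with 10 μM LY (LY10) or with its solvent at 1:5000 (DMSO), and 3 single blastocysts per group were sequenced at day 8. In the second experiment LY was started at the 2-cell stage (cell2_LY) or the 16-cell stage (cell16_LY), with 2 blastocysts in each of these groups and 2 in the control, LY_DMSO. The bESCs were grown in TIFX medium without (bESC_tifx) or with LY (bESC_LY, 10 μM for 3 days), 2 libraries per group. Both groups of the first experiment were cultured with FGF2 at 40 ng/mL and with LIF and IGF1 at 20 ng/mL each. The methods used here do not state the LY concentration of cell2_LY and cell16_LY. The treatment label of LY_DMSO names the inhibitor and DMSO together, so it was taken as the solvent control from the sample name. For the bESC control the label gives medium alone and the study's text gives DMSO. A blastocyst library holds a whole embryo, and the bESCs were kept on mouse fibroblast feeder cells. The labels do not say whether blastocysts came from separate fertilizations or stem cell libraries from separate lines, so p-values measure the spread between these libraries.

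In the mammalian blastocyst, the inner cell mass forms the epiblast, which gives rise to the body of the embryo, and the hypoblast, while the outer trophectoderm forms the placenta. POU5F1 (OCT4), SOX2 and NANOG are transcription factors that bind many of the same regulatory sites and hold epiblast cells and stem cells in the pluripotent state, helped by SALL4, PRDM14, KLF4 and ESRRB. LIN28A and LIN28B are RNA-binding proteins that block maturation of let-7 microRNAs, and GDF3 is a secreted ligand of the TGF-beta family related to NODAL. In cattle, POU5F1 protein is still found in the trophectoderm at the blastocyst stage, whereas SOX2 and NANOG are features of the inner cell mass.

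The files give these genes on the RefSeq annotation of ARS-UCD2.0. NANOG (gene ID 538951) lies at chr5:101412795-101417948 and GDF3 (786521) on the same chromosome at chr5:101293199-101300004. POU5F1 (282316) is at chr23:27982798-27987297, SOX2 (784383) at chr1:85302293-85303771, SALL4 (541170) at chr13:79566132-79583655 and PRDM14 (100140032) at chr14:33786654-33805075. KLF4 (520842) is at chr8:97174495-97179299, ESRRB (528437) at chr10:87626899-87810135, LIN28A (614997) at chr2:126708949-126720207 and LIN28B (112448101) at chr9:44943951-45086236. The stem cell table uses Ensembl gene models instead, and its models differ in length for SALL4, LIN28B, KLF4 and ESRRB. LIN28B has a model of 6818 bases in the blastocyst tables and of 744 bases in the stem cell table, and ESRRB one of 2504 and one of 5062 bases.

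Levels are given as FPKM, a read level adjusted for the length of the gene and the size of the library, which allows genes to be compared within a table. Each blastocyst library had between 7905768 and 17343140 reads on genes and each bESC library between 29055323 and 31230432. All 10 genes passed the filter of a mean normalized count of at least 10 in both blastocyst tables, as did the 8 genes named in the stem cell table. In cell2_LY replicate 1 the library size behind the FPKM was 1.23 times its reads on genes, and this ratio was between 0.949 and 1.07 in the other blastocysts. DMSO replicate 3 was the control with the highest trophectoderm marker sum, 7992 FPKM against 3672 and 3234 in the other DMSO blastocysts.

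POU5F1 was the most abundant of the 10 genes in every blastocyst group. In DMSO blastocysts its median of 184 FPKM was followed by KLF4 at 48.4, SALL4 at 34.1, NANOG at 14.7, ESRRB at 10.5 and PRDM14 at 4.79 FPKM. LIN28A at 3.49, LIN28B at 3.26, SOX2 at 1.83 and GDF3 at 1.51 FPKM formed the low end of this order. Neighbours whose ranges did not overlap were POU5F1 and KLF4, SALL4 and NANOG, and LIN28B and SOX2. In LY10 blastocysts the order began with POU5F1 at 481, SALL4 at 27.5, NANOG at 24.5 and KLF4 at 15.2 FPKM, and among neighbours of this order ranges were apart only between POU5F1 and SALL4 and between PRDM14 and SOX2. KLF4 thus came right after POU5F1 in DMSO and after SALL4 and NANOG in LY10 blastocysts, though its range overlapped that of SALL4 in DMSO and those of SALL4, NANOG and ESRRB in LY10.

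In LY10 against DMSO, POU5F1 was higher and KLF4 lower, and the other 8 genes did not pass the threshold. A gene passed where its unadjusted p by limma was under 0.05 and its log2 fold change was above 1 or below -1. This threshold was passed by 2 of the 10 genes (1 higher, 1 lower), beside 14.7% of all 14249 genes tested (884 higher, 1213 lower, and 1074 higher, 879 lower with quantile normalization, which moved the median over all genes from -0.05 to 0.07). None of the 10 genes had a Benjamini-Hochberg adjusted p under 0.05 by limma, where 2 of all genes did. With 6 genes higher and 4 lower, the median log2 fold change of the 10 genes was 0.52, and it was -0.05 over all tested genes.

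POU5F1, the octamer-binding factor of the pluripotency network, was at 246, 184 and 164 FPKM in the DMSO blastocysts. In the LY10 blastocysts it was at 481, 611 and 328 FPKM. Every LY10 blastocyst lay above every DMSO blastocyst, and it was the only one of the 10 genes without overlap, beside 28.1% of all tested genes. Its log2 fold change was 1.23 (SE 0.28, 95% interval 0.60 to 1.87, limma adjusted p = 0.0786). Without DMSO replicate 3, the blastocyst with the lowest POU5F1, the log2 fold change was 1.11. The limma adjusted p was then 0.0454, the lowest of a range up to 0.223 over all alternatives. Over all genes, 1964 of 14298 had a limma adjusted p under 0.05 in that fit, against 2 with all libraries. In a whole embryo, more RNA per cell and more cells that carry it cannot be told apart.

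KLF4, a zinc finger factor of the naive pluripotent state that epithelial cells also use, was at 48.4, 55.0 and 21.8 FPKM in DMSO and at 15.2, 11.6 and 22.4 FPKM in LY10. The difference rested on DMSO replicates 1 and 2, since DMSO replicate 3 lay within the range of the LY10 blastocysts. The log2 fold change was -1.29 (SE 0.39, 95% interval -2.18 to -0.40, limma adjusted p = 0.113). Without DMSO replicate 3 it was -1.71, with a limma adjusted p of 0.0184, the lowest of a range up to 0.289. That fit is the one with 1964 of 14298 genes at a limma adjusted p under 0.05, so this low value is not particular to KLF4.

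NANOG, the homeodomain factor of the epiblast, was at 14.7, 22.5 and 2.91 FPKM in DMSO and at 10.7, 103 and 24.5 FPKM in LY10. A single LY10 blastocyst, replicate 2, held most of the difference, and the groups overlapped. SOX2, the partner of POU5F1 on DNA, was at 2.56, 1.83 and 0.556 FPKM in DMSO and at 2.34, 2.81 and 2.55 FPKM in LY10. These levels rest on between 8 and 66 reads per blastocyst, and the 8 reads in DMSO replicate 3 have a 95% counting interval of 3.45 to 15.8. Such intervals cover counting error only. PRDM14, a chromatin regulator of the naive state and of germ cells, was at 11.3, 4.79 and 2.27 FPKM in DMSO and at 8.50, 18.2 and 10.5 FPKM in LY10. SALL4, a zinc finger factor that binds together with POU5F1, was at 36.5, 34.1 and 23.4 FPKM in DMSO and at 27.5, 31.8 and 20.002 FPKM in LY10. SALL4 had the smallest spread of the 10 genes in this table, with the highest blastocyst 1.83 times the lowest.

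ESRRB, an orphan nuclear receptor, ranged from 10.1 to 12.2 FPKM in DMSO and from 8.84 to 17.6 FPKM in LY10, and the LY10 range enclosed that of DMSO. GDF3 was at 2.04, 0.652 and 1.51 FPKM in DMSO and at 0.794, 13.6 and 1.89 FPKM in LY10. As for NANOG, LY10 replicate 2 was the high one, and the other LY10 blastocysts lay within the DMSO range. LIN28A was at 7.43, 3.32 and 3.49 FPKM in DMSO and at 1.24, 3.87 and 1.38 FPKM in LY10, where 6, 38 and 7 reads were counted. LIN28B was at 3.91, 3.26 and 3.25 FPKM in DMSO and at 1.82, 5.02 and 1.82 FPKM in LY10. For both LIN28 genes LY10 replicates 1 and 3 were below all DMSO blastocysts and LY10 replicate 2 was within or above their range. The log2 fold changes of these 8 genes, none of which had an unadjusted p under 0.05 by limma, lay between -1.16 for LIN28A and 1.60 for NANOG, with a 95% interval of -0.47 to 3.67 for NANOG.

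**Figure D1:**
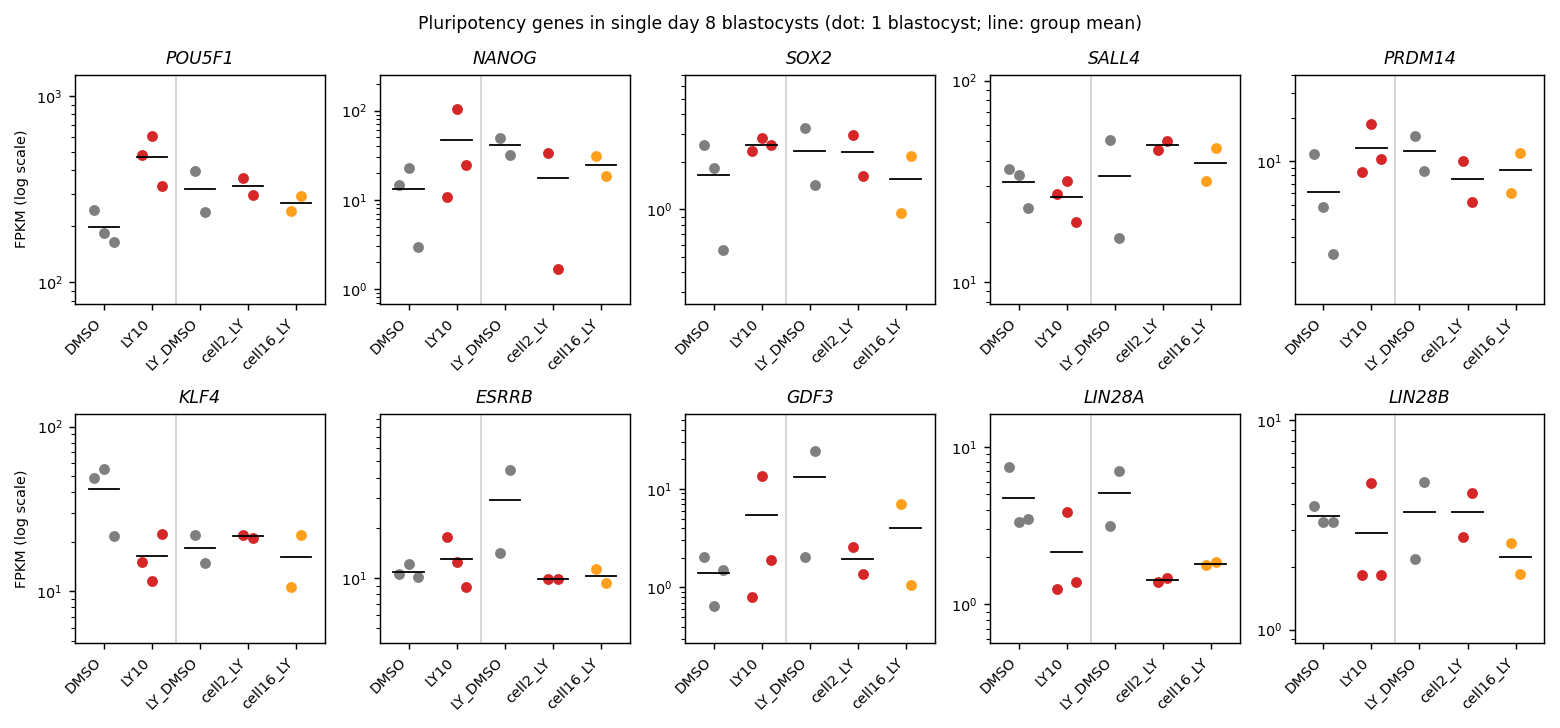
FPKM (log scale) of the 10 genes in the 12 single blastocysts, by group, with the first experiment left of the grey line and the second right of it; dots are blastocysts and bars are group means. POU5F1 is at 328 FPKM or above in all LY10 blastocysts and at 246 FPKM or below in all DMSO blastocysts, while NANOG runs from 1.68 to 103 FPKM.

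In the second experiment, ESRRB was the only one of the 10 genes that passed the threshold, lower in cell2_LY and in cell16_LY than in LY_DMSO. Both comparisons use the same LY_DMSO blastocysts and are not independent. The threshold was passed by 1 of 10 genes in cell2_LY, beside 17.0% of 14529 genes (1265 higher, 1211 lower, and 1842 higher, 674 lower with reads on genes as library size, which moved the median over all genes from 0.00 to 0.24), and by 1 of 10 in cell16_LY, beside 5.22%. ESRRB was at 14.2 and 44.5 FPKM in LY_DMSO, at 9.81 and 9.82 FPKM in cell2_LY and at 11.4 and 9.29 FPKM in cell16_LY. The treated blastocysts all lay below both controls, and LY_DMSO replicate 2 stood far above all others. The log2 fold change was -1.35 in cell2_LY (SE 0.48, 95% interval -2.46 to -0.25, limma adjusted p = 0.145) and -1.29 in cell16_LY (SE 0.48, interval -2.39 to -0.18, limma adjusted p = 0.62). Without LY_DMSO replicate 2 it was -0.53 in cell2_LY (limma adjusted p = 0.502) and -0.46 in cell16_LY (limma adjusted p = 0.972), and neither passed the threshold. Over all alternatives the adjusted p lay between 0.0541 and 0.502 in cell2_LY and between 0.128 and 1 in cell16_LY. The call in cell2_LY was also lost without either cell2_LY blastocyst (-1.35 both times), and that in cell16_LY without cell16_LY replicate 2 (-1.14).

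POU5F1 was at 395 and 240 FPKM in LY_DMSO, at 364 and 293 in cell2_LY and at 242 and 291 in cell16_LY. The LY_DMSO range enclosed all treated blastocysts. The log2 fold change of POU5F1 was 0.09 in cell2_LY, with a 95% interval of -0.62 to 0.79, and -0.22 in cell16_LY, with an interval of -0.92 to 0.49. Both intervals lie between -1 and 1. KLF4 was at 21.9 and 15.0 FPKM in LY_DMSO, at 21.9 and 21.2 in cell2_LY and at 10.6 and 22.0 in cell16_LY, again without separation of the groups.

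NANOG was at 49.6 and 31.6 FPKM in LY_DMSO, at 33.3 and 1.68 in cell2_LY and at 30.9 and 18.6 in cell16_LY. The low value in cell2_LY replicate 2 came from 42 reads, with a counting interval of 30.3 to 56.8, against 754 reads in cell2_LY replicate 1. In cell16_LY both blastocysts were below both controls, though the log2 fold change of -0.72 had an interval of -3.22 to 1.78 and did not pass the threshold. PRDM14 was at 15.0 and 8.65 FPKM in LY_DMSO, at 10.0 and 5.20 in cell2_LY and at 6.01 and 11.5 in cell16_LY. SOX2 was at 3.25 and 1.43 FPKM in LY_DMSO, at 2.95 and 1.62 in cell2_LY and at 0.948 and 2.17 in cell16_LY. The groups of both genes overlapped in both comparisons.

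LIN28A was lower in both treated groups than in both controls, at 3.15 and 7.06 FPKM in LY_DMSO, 1.39 and 1.47 in cell2_LY and 1.78 and 1.86 in cell16_LY. The counts behind these values were 32 and 72 reads in the controls and 12 to 18 reads in the treated blastocysts. The log2 fold changes, -1.65 in cell2_LY and -1.33 in cell16_LY, had 95% intervals of -3.35 to 0.04 and -3.02 to 0.37 and did not pass. LIN28B was at 2.18 and 5.09 FPKM in LY_DMSO, at 2.77 and 4.51 in cell2_LY and at 2.60 and 1.84 in cell16_LY. SALL4 was at 50.7 and 16.6 FPKM in LY_DMSO, at 45.3 and 50.3 in cell2_LY and at 31.9 and 46.6 in cell16_LY. GDF3 was at 2.03 and 24.2 FPKM in LY_DMSO, at 2.56 and 1.36 in cell2_LY and at 7.001 and 1.07 in cell16_LY. For SALL4 and GDF3 the LY_DMSO blastocysts were further apart from each other than the groups were, and LY_DMSO replicate 2 was the lowest for SALL4 and the highest for GDF3.

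In cell2_LY the groups were apart for 2 of the 10 genes, ESRRB and LIN28A, beside 53.7% of all tested genes. In cell16_LY this held for 3 genes, ESRRB, LIN28A and NANOG, beside 42.9%. Of the 10 genes, 5 were higher and 5 lower in cell2_LY, and 1 was higher and 9 lower in cell16_LY. Between the start times, cell16_LY against cell2_LY, none of the 10 genes passed the threshold and none had an unadjusted p under 0.05 by limma, beside 11.3% of all genes past the threshold (810 higher, 839 lower, and 421 higher, 1261 lower with reads on genes as library size). The treated groups were apart from each other for POU5F1, LIN28A and LIN28B, 3 of 10 genes beside 54.5% of all. The log2 fold changes of the later against the earlier start lay between -0.69 for LIN28B and 1.67 for NANOG, and the NANOG interval of -0.83 to 4.17 shows how little 2 blastocysts a group can resolve for that gene.

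**Figure D2:**
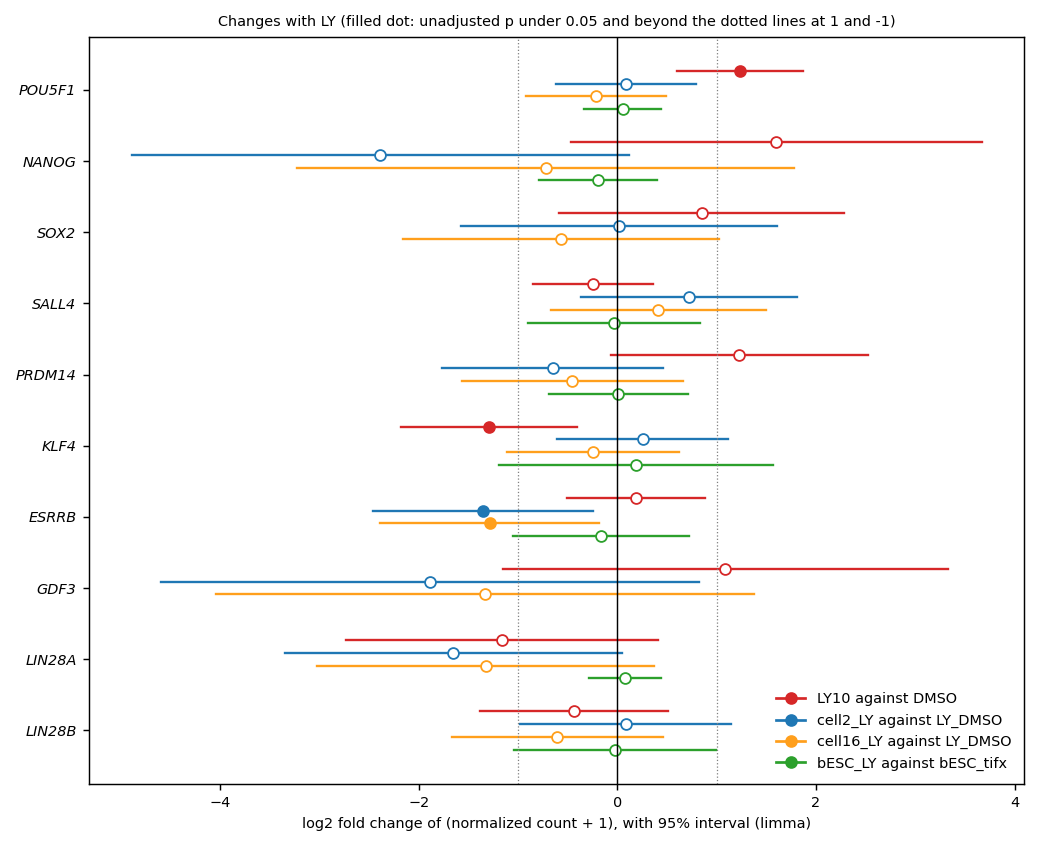
Log2 fold changes with 95% intervals from limma for the 10 genes in LY10, cell2_LY, cell16_LY and bESC_LY, each against its control; filled dots pass an unadjusted p under 0.05 and lie beyond the dotted lines at 1 and -1. POU5F1 (1.23) and KLF4 (-1.29) are filled for LY10, ESRRB is filled for cell2_LY (-1.35) and cell16_LY (-1.29), and no dot is filled for stem cells.

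Both blastocyst experiments had a group with LY from the 2-cell stage, so the change in LY10 was set against the change in cell2_LY, each relative to its own control. The difference of the log2 fold changes passed the threshold for 5 of the 10 genes, beside 22.2% of 14470 genes (1818 higher, 1394 lower, and 1282 higher, 1885 lower with reads on genes as library size, which moved the median over all genes from -0.09 to -0.33), and for none after adjustment with all libraries. It was 1.15 for POU5F1 (95% interval 0.20 to 2.10, limma adjusted p = 0.132), and -1.55 for KLF4 (interval -2.87 to -0.22, limma adjusted p = 0.143). For ESRRB it was 1.54 (interval 0.25 to 2.84, limma adjusted p = 0.136), 0.72 without LY_DMSO replicate 2 (limma adjusted p = 0.45) and 2.37 without LY_DMSO replicate 1 (limma adjusted p = 0.0446). For NANOG it was 3.99 (interval 0.38 to 7.59, limma adjusted p = 0.163) and for PRDM14 it was 1.88 (interval 0.02 to 3.75, limma adjusted p = 0.202). In these genes the log2 fold changes of LY10 and cell2_LY were 1.23 and 0.09 for POU5F1, -1.29 and 0.25 for KLF4, and 1.60 and -2.39 for NANOG. For PRDM14 they were 1.23 and -0.65, and for ESRRB 0.19 and -1.35. With reads on genes as the library size KLF4 alone of the 5 passed the threshold, and without cell2_LY replicate 2 none of the 10 genes passed it (NANOG 1.85, against 6.12 without cell2_LY replicate 1). The count was 1 without LY10 replicate 2 and 2 without LY_DMSO replicate 2, and 3 without DMSO replicate 2, DMSO replicate 3 or cell2_LY replicate 1. The control levels were unlike each other too, with POU5F1 at 164 to 246 FPKM in DMSO and 240 to 395 in LY_DMSO, and KLF4 at 21.8 to 55.0 and 15.0 to 21.9 FPKM. The experiments were normalized separately, so these levels stand side by side without a test, and an effect of the experiment and of its control cannot be told apart.

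The 10 genes did not all rise and fall together among blastocysts. NANOG, POU5F1, PRDM14 and SOX2, grouped after their values were seen, had a Pearson r with each other between 0.492 and 0.866. This was on log2(FPKM + 1) over the 12 blastocysts, with each table centred on its own mean, and is a description. For other pairs r was negative, such as SALL4 with ESRRB (-0.675) and with GDF3 (-0.616). LY10 replicate 2 had the highest level of its table for 6 of the 10 genes, GDF3, LIN28B, NANOG, POU5F1, PRDM14 and SOX2, and the lowest KLF4. DMSO replicate 3 had the lowest level for NANOG, POU5F1, PRDM14 and SOX2. In the second table LY_DMSO replicate 1 was highest for NANOG, POU5F1, PRDM14, SALL4 and SOX2, whereas LY_DMSO replicate 2 was highest for ESRRB, GDF3, LIN28A and LIN28B and lowest for POU5F1 and SALL4. The 2 control blastocysts of the second experiment thus led for different genes. LY10 replicate 2 and LY_DMSO replicate 1 were also the deepest libraries of their tables, with 15137567 and 17343140 reads on genes, and the part of depth in this was not tested.

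Spread within groups was widest for NANOG and GDF3 in both tables. The within-group SD of log2(normalized count + 1) was 1.60 for NANOG and 1.55 for GDF3 in the first table, above that of 91.0% and 90.4% of all tested genes. In the second table it was 1.79 and 1.84, above 96.3% and 96.7%. POU5F1 varied far less, with an SD of 0.38 and 0.34, below the medians of all tested genes of 0.51 and 0.42. The ratio of the highest to the lowest of the 6 blastocysts was 35.5 and 29.6 for NANOG and 3.72 and 1.65 for POU5F1. The SD was above the median of all genes for 7 of the 10 genes in the first table and for 9 in the second.

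**Figure D3:**
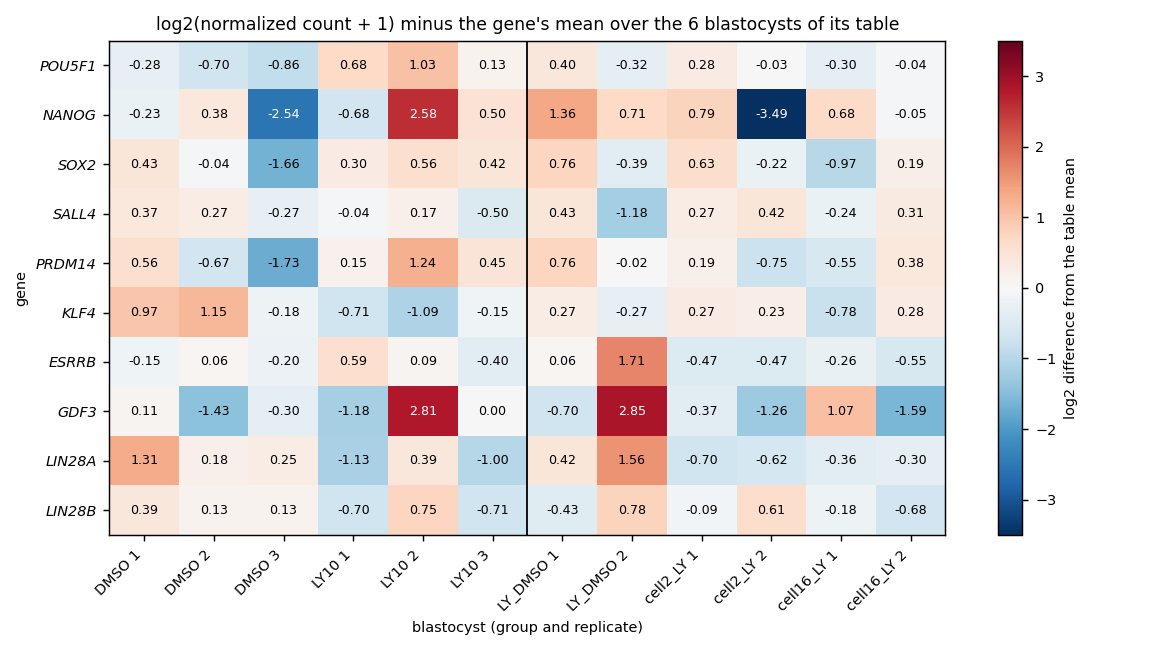
Log2(normalized count + 1) of each gene in each of the 12 blastocysts, minus the mean over the 6 blastocysts of its table, with red for higher and blue for lower values. NANOG is at -2.54 in DMSO replicate 3, 2.58 in LY10 replicate 2 and -3.49 in cell2_LY replicate 2, and GDF3 is at 2.81 in LY10 replicate 2 and 2.85 in LY_DMSO replicate 2.

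The genes whose levels followed those of NANOG and POU5F1 most closely over the 12 blastocysts were looked for among 9326 genes, with each table centred on its own mean and log2(FPKM + 1) as the scale. For NANOG these were CD38 (Pearson r = 0.924), LAS1L (0.907) and STMN1 (0.881). For POU5F1 they were RRP1 (0.962), TRIM28 (0.946) and PCK2 (0.940). The points share libraries, depth and treatment groups, so these correlations are a description. SOX2 and GDF3 were below the mean of 50 normalized counts that this search required in a table.

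The wider set of pluripotency genes held 38 named genes in each table, of which 28 were tested in blastocysts. In LY10, 3 were higher and 1 lower, in cell2_LY 4 were higher and 7 lower, in cell16_LY none passed the threshold, and between cell16_LY and cell2_LY 3 were higher and 4 lower. Over all genes 14.7% passed in LY10, 17.0% in cell2_LY, 5.22% in cell16_LY and 11.3% between the start times. The median log2 fold change of the set was -0.14 in LY10 and 0.36 in cell2_LY, beside -0.05 and 0.00 over all tested genes.

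Higher in LY10 were DPPA4, a chromatin factor of early embryos (log2 fold change 1.59), STAT3, the transducer of LIF signals (2.24), and CDH1, the epithelial cadherin (1.93). Lower was NR5A2, a nuclear receptor that can activate POU5F1 (-2.58), with adjusted p by limma between 0.0786 and 0.148 over these genes. DPPA4 was at 4.26, 4.77 and 11.2 FPKM in DMSO and at 14.2, 23.5 and 18.7 in LY10. STAT3 was at 3.42, 1.46 and 2.13 FPKM in DMSO and at 4.59, 17.1 and 14.6 in LY10. CDH1 was at 13.9, 15.6 and 26.4 FPKM in DMSO and at 57.7, 131 and 41.7 in LY10. The groups did not overlap for DPPA4, STAT3 and CDH1, beside 28.1% of all tested genes. NR5A2 had no level above 2.39 FPKM in any of these 6 blastocysts.

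In cell2_LY, DPPA4 (-1.29), STAT3 (-1.44) and CDH1 (-1.18) were lower than in LY_DMSO. DPPA4 was at 22.2 and 13.4 FPKM in LY_DMSO and at 6.52 and 7.63 in cell2_LY, and CDH1 at 118 and 112 FPKM in LY_DMSO and at 35.3 and 73.9 in cell2_LY. STAT3 was at 22.9 and 9.77 FPKM in LY_DMSO and at 9.80 and 3.07 in cell2_LY. The LY_DMSO blastocysts thus had levels of these genes above those of the DMSO blastocysts, which were 4.26 to 11.2 FPKM for DPPA4, 13.9 to 26.4 for CDH1 and 1.46 to 3.42 for STAT3. The difference between the experiments was 2.88 for DPPA4 (limma adjusted p = 0.0204), 3.69 for STAT3 (adjusted p = 0.0343) and 3.10 for CDH1 (adjusted p = 0.0204). These were the 3 genes of the set, of 28 tested, with an adjusted p under 0.05 in any comparison. In this difference 998 of all 14470 tested genes had a limma adjusted p under 0.05, so such a value is not particular to these genes.

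The other genes lower in cell2_LY were DPPA3 (-1.59), a maternal and germ cell factor, KLF17 (-4.65), and DPPA2 (-1.91) and ZFP42 or REX1 (-1.35), the last 2 named after their values were seen. DPPA3 was at 197 and 230 FPKM in LY_DMSO, at 83.8 and 59.4 in cell2_LY and at 91.0 and 134 in cell16_LY. ZFP42 was at 556 and 664 FPKM in LY_DMSO and at 126 and 450 in cell2_LY. KLF17 was at 1.499 and 0.735 FPKM in LY_DMSO and at 0.379 FPKM in cell2_LY replicate 1, and it was listed at 0 in cell2_LY replicate 2, on which the size of its fold change leans. ETV4 (2.24), TRIM71 (1.54), KLF2 (1.75) and TCF7L1 (1.14) were higher in cell2_LY, and the adjusted p of these 8 genes by limma lay between 0.0711 and 0.199. From cell2_LY to cell16_LY, DPPA2 (1.56), CDH1 (1.25) and CD24 (1.00) were higher, and DNMT3B (-1.05), UTF1 (-2.02), ETV4 (-1.37) and TCF7L1 (-1.03) lower, with adjusted p by limma of 0.193 and above.

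Markers of the other lineages of the blastocyst were read beside these genes. The summed level of the 14 trophectoderm markers was 3234 to 7992 FPKM in DMSO and 4612 to 10737 in LY10, with none of the 13 tested past the threshold. KRT8, the most abundant of them, was at 1950, 1582 and 4211 FPKM in DMSO and at 6493, 2637 and 3516 in LY10. The sum was 4747 to 5928 FPKM in LY_DMSO, 6413 to 9142 in cell2_LY and 6641 to 8168 in cell16_LY. CDX2, GATA2 and KRT19, 3 of 14 tested, were higher in cell2_LY (limma adjusted p 0.0711 to 0.106), beside 17.0% of all genes in either direction. IFNT2 and KRT19, 2 of 14, were higher in cell16_LY (limma adjusted p 0.341 and 0.499), beside 5.22%. CDX2, the trophectoderm determinant, was at 0.41 and 0.591 FPKM in LY_DMSO and at 3.87 and 3.49 in cell2_LY. In cell16_LY it was at 1.14 and 0.86 FPKM, lower than in cell2_LY (log2 fold change -1.84, limma adjusted p = 0.227). ESRRB was lower than in LY_DMSO in both treated groups, with log2 fold changes of -0.53 in cell2_LY and -0.46 in cell16_LY without LY_DMSO replicate 2. A relation between ESRRB and these markers was not tested.

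The 11 hypoblast markers summed to 82.0 to 151 FPKM in DMSO and 84.5 to 127 in LY10, and 3 of 8 tested were higher in LY10 (HNF4A, PDGFRA and COL4A2), beside 14.7% of all genes in either direction. GATA6, an early hypoblast factor with no call in LY10, was at 107, 91.3 and 64.8 FPKM in DMSO and at 57.3, 46.2 and 52.6 FPKM in LY10. All LY10 blastocysts were below all DMSO blastocysts, and the groups of 28.1% of all tested genes did not overlap. PDGFRA was at 2.36, 0.526 and 4.26 FPKM in DMSO and at 10.6, 47.1 and 26.0 in LY10, and its highest blastocyst, LY10 replicate 2, also had the highest NANOG and GDF3. SOX17, a defining hypoblast gene, was at 0.30 FPKM or below in all 12 blastocysts. In the second experiment PDGFRA was lower in cell2_LY than in LY_DMSO, and no hypoblast marker passed in cell16_LY. Sums of the 10 oocyte markers were 1.73 to 8.91 FPKM and those of the 7 cumulus markers 9.03 to 89.2 FPKM over all blastocysts. The 9 fibroblast markers summed to 25.9 to 91.5 FPKM in DMSO and 6.10 to 11.7 in LY10, where COL1A2, DCN and TWIST1 were lower. The part of these cell types in the changes of POU5F1, KLF4 and ESRRB was not tested.

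In bESCs, LY left the 8 named genes without a call, and their levels followed the library number more than the treatment. None of the 8 passed the threshold, beside 0.0749% of 16012 genes (12 genes), and none had an unadjusted p under 0.05 by limma in the fit without the library number. Log2 fold changes were between -0.20 for NANOG and 0.19 for KLF4, with 4 genes higher and 4 lower, and for none of the 8 were the groups apart, beside 14.2% of all tested genes. POU5F1 was at 1086 and 967 FPKM in bESC_tifx (replicates 2 and 3) and at 1117 and 1012 in bESC_LY, and its 95% interval of -0.33 to 0.44 on the log2 scale excludes a 1-unit change. LIN28A was at 843 and 868 FPKM in bESC_tifx and at 847 and 960 in bESC_LY, with an interval of -0.28 to 0.44. NANOG was at 53.8 and 38.7 FPKM in bESC_tifx and at 43.8 and 36.3 in bESC_LY, with an interval of -0.79 to 0.40. Within each number NANOG and ESRRB were lower with LY, and POU5F1, LIN28A and KLF4 were higher.

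SALL4 was at 126 and 167 FPKM in bESC_tifx and at 107 and 188 in bESC_LY, PRDM14 at 27.6 and 36.2 and at 26.4 and 38.4, and LIN28B at 48.4 and 76.2 and at 44.5 and 80.1. For these genes both number 3 libraries were above both number 2 libraries. ESRRB went the other way, at 8.84 and 5.89 FPKM in bESC_tifx and 8.11 and 5.07 in bESC_LY. KLF4 was lowest, at 1.41 and 3.04 FPKM in bESC_tifx and 1.75 and 3.17 in bESC_LY, and its interval of -1.20 to 1.57 in that fit was the widest of the 8. CDX2 differed between the numbers as well, at 0.37 and 0.24 FPKM in the number 2 libraries and 13.7 and 15.2 FPKM in the number 3 libraries, and the 14 trophectoderm markers summed to 400 to 454 and to 135 to 149 FPKM. What the number stands for is not stated in the labels, and its part in these levels was not tested.

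Reads assigned to close copies were few. A model on chromosome 7 that resembles POU5F1 (ENSBTAG00000052249) had 85 to 112 reads in the bESC libraries against 33378 to 34991 for POU5F1 itself. Models that resemble LIN28A on chromosomes 7 and 26 had 67 to 177 reads against 15106 to 18938.

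Set side by side as RPM (a gene's reads over the authors' library size, counted in units of 1e6 reads), bESCs and blastocysts differed most for LIN28A. LIN28A was at 521 to 593 RPM in the 4 bESC libraries and at 0.768 to 4.59 in the 12 blastocysts, so that the lowest bESC library was 113 times the highest blastocyst. LIN28B, its paralog, was at 33.1 to 59.6 in bESCs and 12.4 to 34.7 in blastocysts, and these ranges overlapped, but the bESC model covers 744 bases against 6818. Per length LIN28B was at 44.5 to 80.1 FPKM in bESCs and 1.82 to 5.09 FPKM in blastocysts, which did not overlap. POU5F1 was at 1047 to 1210 in bESCs and 178 to 662 in blastocysts, SALL4 at 362 to 635 and 82.9 to 254, and PRDM14 at 45.3 to 65.8 and 3.90 to 31.2, each without overlap. KLF4 was the only gene of the 8 with all blastocysts above all bESCs, at 32.6 to 170 RPM in blastocysts and 4.39 to 9.86 in bESCs. NANOG at 58.9 to 87.3 in bESCs and 2.72 to 168 in blastocysts, and ESRRB at 25.7 to 44.7 and 22.1 to 112, overlapped in RPM. The models of SALL4 and ESRRB also differ in length between the tables. In FPKM SALL4 was at 107 to 188 in bESCs and 16.6 to 50.7 in blastocysts, again without overlap, and ESRRB at 5.07 to 8.84 and 8.84 to 44.5. The sample types differ in kit, annotation and makeup of cells, so no test was made between them.

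**Figure D4:**
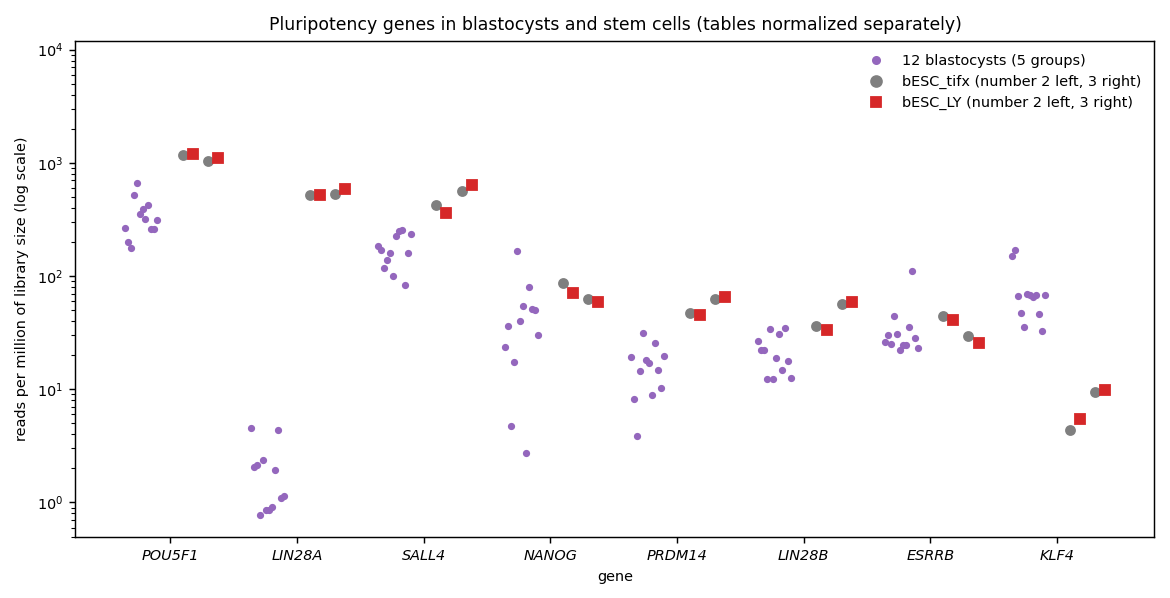
RPM (log scale) of the 8 genes named in the stem cell table, for the 12 blastocysts (purple) and the 4 bESC libraries (grey circles without and red squares with LY). LIN28A lies between 0.768 and 4.59 in blastocysts and between 521 and 593 in bESCs, and KLF4 is higher in all blastocysts than in any bESC library.

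Of the wider set, 31 genes were tested in bESCs and none passed the threshold, beside 0.0749% of all 16012 genes. The bESCs had high levels of DNMT3B (322 to 423 FPKM), CDH1 (107 to 126), CD24 (78.1 to 92.4) and TCF7L1 (81.9 to 96.2). CDH1 was not particular to bESCs, since it was at 13.9 to 131 FPKM in blastocysts. Of the formative and primed list, SOX11 (110 to 176 FPKM), SFRP2 (91.2 to 120), ZIC2 (52.8 to 123) and SALL2 (57.2 to 96.4) were high as well. CDH2 was at 23.7 to 53.4 FPKM, POU3F1 at 6.69 to 15.7 and LEF1 at 2.56 to 16.7. Low in bESCs were FGF5, listed at 0 in all libraries, and TBXT at 0.954 to 4.17 FPKM. Formative and primed genes summed to 680 to 840 FPKM in bESCs and to 28.3 to 150 FPKM in blastocysts, and naive genes to 51.3 to 59.9 FPKM in bESCs and 129 to 269 in blastocysts, sums set across tables with different gene models. Within the naive list KLF5 was at 3.38 to 9.61 FPKM in bESCs and 72.3 to 175 FPKM in blastocysts, whereas SOCS3 was at 23.8 to 30.9 FPKM in bESCs and 0.272 to 2.61 FPKM in blastocysts. ZFP42 and DPPA2, at 126 to 827 and 24.1 to 268 FPKM in blastocysts, were at 0.31 FPKM or below in bESCs. The 9 fibroblast markers summed to 72.0 to 84.3 FPKM in the bESC libraries, with COL1A1 at 45.8 to 54.7 FPKM, and this sum did not separate LY from control.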

How the data were processed

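RNA of 12 single blastocysts was amplified with SMART-Seq and that of the bESCs extracted with a column kit. Reads were trimmed, aligned and counted by the authors. The methods name STAR and HISAT2, and the processing notes list HISAT2 2.0.5, StringTie 1.3.3b, featureCounts 1.5.0-p3 and DESeq2 1.20.0. The deposited values are FPKM, though named normalized counts, and the tables also hold the authors' DESeq2 fold changes and p-values, which were not used. FPKM times gene length gave whole reads for 100% of values within 0.02 reads once each library's step was found. These reads, scaled from the authors' library size to a library size common to each table (its geometric mean), are the normalized counts. Depth is the range of reads on genes given above. Intervals have a level of 95%. Those of log2 fold changes are limma's and rest on the spread between libraries, and those of read counts and limits on a count of 0 cover counting error only, since amplified reads carry no molecular identifiers.

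Tests used limma 3.58.1 (R 4.3.3) on log2(normalized count + 1) for genes whose mean was 10 or more, by lmFit and eBayes with a trend and no covariate. All groups of the second experiment entered 1 fit, and the difference between experiments used all 12 blastocysts. Fold changes on this scale understate changes of low genes. A gene left out of the wider list is not reported here. The 10 genes and the lists were chosen with earlier results of these data known. Fold changes with tests are given for genes with an unadjusted p under 0.05, other genes by level, and list genes where they passed the threshold, at most 4 per list and comparison by the smallest p. The 3 genes most like NANOG, POU5F1, SOX2 and GDF3 needed a mean of at least 50. Some values outside this rule (LIN28A, NANOG and the bESC intervals, and levels of list and marker genes in bESCs and blastocysts) were chosen after being seen. Alternatives were pseudocounts of 0.5 and 5, no filter or a mean of at least 50, quantile, reads-on-genes and median-of-ratios scaling, voom and sample weights, log2(FPKM + 1) for genes averaging 0.5 FPKM or more, the replicate number as block, a fit of 2 groups, and each library left out. A crossed block was added after seeing the data. DESeq2 was not rerun. The labels give batch 1 for all libraries, so no batch could be compared. No sequences were used. Tables and figures used Python 3.11.15, numpy 2.4.6, pandas 2.3.3 and matplotlib 3.10.9.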

Additional observations from a re-analysis of the deposited data

Results flagged for a closer look

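For 5 genes the change with LY from the 2-cell stage differed between the 2 blastocyst experiments at an unadjusted p under 0.05 by limma, and none did so after adjustment. Of all 14470 tested genes, 3522 had such an unadjusted p, and 998 had an adjusted p under 0.05 by limma. The difference of the log2 fold changes (LY10 against DMSO, minus cell2_LY against LY_DMSO) was 1.15 for POU5F1 (adjusted p = 0.132), -1.55 for KLF4 (adjusted p = 0.143), 3.99 for NANOG (adjusted p = 0.163), 1.54 for ESRRB (adjusted p = 0.136) and 1.88 for PRDM14 (adjusted p = 0.202). POU5F1 was higher in 3 of 3 LY10 blastocysts than in any DMSO blastocyst, where the groups of 28.1% of all tested genes did not overlap. For POU5F1 cell2_LY and LY_DMSO overlapped.

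The stem cell table holds an unnamed gene model, ENSBTAG00000023192, at chr5:101293270-101299881, within the position of GDF3 in the blastocyst tables. It had 38 and 12 reads in bESC_tifx and 26 and 22 in bESC_LY, 98 reads in all, above the limit of 3 reads that a count of 0 allows. Its description refers to GDF3, but it was not counted as GDF3, since the table gives it no gene name.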

How the results depend on the processing

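Counts of the 10 genes past the threshold were recomputed under each alternative. Fold changes with an unadjusted p under 0.05 by limma in the fits above were recomputed too, and none of them changed direction. The directions of the other fold changes were not checked. In LY10 against DMSO the count was 2 to 3 under all alternatives, and POU5F1 fell short only with sample weights (log2 fold change 0.98). In cell2_LY it was 1, and 2 with a pseudocount of 5, voom weights, sample weights, log2(FPKM + 1) or the replicate block, 3 with quantile normalization, and between 0 and 4 with a library left out (0 without cell2_LY replicate 2 or LY_DMSO replicate 2, 4 without LY_DMSO replicate 1). In cell16_LY it was 1, 2 with log2(FPKM + 1), and between 0 and 4 (0 without LY_DMSO replicate 2 or cell16_LY replicate 2, 4 without LY_DMSO replicate 1). Between the start times it was 0, and between 0 and 1 with a library left out (1 without cell2_LY replicate 1 or cell16_LY replicate 2). For the difference between experiments it was 5, 1 with reads on genes as library size, 3 with sample weights, and between 0 and 5 with a library left out (0 without cell2_LY replicate 2, 1 without LY10 replicate 2, 2 without LY_DMSO replicate 2, 3 without DMSO replicate 2, DMSO replicate 3 or cell2_LY replicate 1). The cause was not tested. In bESCs it was 0 throughout, while of all genes 12 passed, 158 without a filter, 2 with a mean of at least 50, 22 with log2(FPKM + 1), 146 with the replicate block, and 28 to 58 with a library left out. Counts over all genes moved by over 1.5 times elsewhere too, in LY10 from 2097 to 1350 with a mean of at least 50, 1327 without DMSO replicate 2 and 3456 without DMSO replicate 3, in cell2_LY from 2476 to 1628 with log2(FPKM + 1) and 1577 without cell2_LY replicate 1, in cell16_LY from 758 to 1238 without a filter, 454 with log2(FPKM + 1), 1357 without LY_DMSO replicate 1 and 350 without cell16_LY replicate 1, and between the start times from 1649 to 958 with log2(FPKM + 1), 936 and 2908 without cell2_LY replicate 1 or 2 and 820 without cell16_LY replicate 1.

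Same-numbered libraries deviated from their group means together in bESCs (r = 0.789). With 2 libraries per group both same-numbered pairs must give the same r, so this is 1 value. In the first table r was between -0.12 and 0.17, so the numbers are not known to pair samples. With the replicate block the counts were 3 in LY10, 2 in cell2_LY, 1 in cell16_LY and 0 in bESCs. In bESCs NANOG alone of the 8 genes then had an unadjusted p under 0.05 by limma (0.00808, limma adjusted p = 0.311, log2 fold change -0.20). Over all genes 1276 of 16012 had one in that fit. The SE of KLF4 in bESCs was 0.19 in place of 0.52. In the second table, also with 2 libraries per group, cell16_LY numbers ran against the others by 1 value each (r = -0.13 with cell2_LY and -0.23 with LY_DMSO). A crossed replicate block chosen after seeing the data gave 2 in cell2_LY, 1 in cell16_LY and 0 between them. Depth limits SOX2, LIN28A and GDF3 most, with as few as 8, 6 and 8 reads in a blastocyst.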
